A study of Homo sapiens with 9 samples.

Results

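A set of 9 genes of glutamate metabolism were described across cells that lack OGDHL, a relative of the 2-oxoglutarate dehydrogenase subunit OGDH, and cells in which it was put back. The 9 genes were taken by symbol from the deposited table, which holds 36650 rows, and all 9 were found: GPT and GPT2 (alanine aminotransferases), GLUL (glutamine synthetase), GLUD1 (glutamate dehydrogenase), GOT1 and GOT2 (aspartate aminotransferases), OAT (ornithine aminotransferase), and ALDH18A1 and PYCR1 (proline synthesis). The genes were listed by their known reactions, at a time when earlier results of these data were known.

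The cells were of the 16D line, a castration-resistant prostate cancer line descended from LNCaP. In every group OGDHL had been targeted with Cas9 and a guide RNA delivered by lentivirus, and the cells had then been held with 10 µM enzalutamide, an androgen receptor antagonist, for 6 weeks. A second lentivirus carried eGFP (group eGFP), full-length OGDHL that the guide cannot cut (FL), or the same OGDHL without its mitochondrial targeting sequence (dMTS). RNA from 3 libraries a group was sequenced, 9 in all. No unedited cells and no cells without enzalutamide were analysed here, the labels do not say whether the knockout cells were a pool or 1 clone, and nothing says that the 3 libraries of a group came from separate cultures, so p-values measure the spread between these libraries, which may be technical.

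Glutamate stands at a junction of carbon and nitrogen metabolism. Transaminases pass its amino group to a 2-oxo acid and leave 2-oxoglutarate, the substrate that OGDH-type enzymes oxidise in the mitochondrial tricarboxylic acid cycle; glutamate dehydrogenase makes 2-oxoglutarate from glutamate and frees ammonia. Glutamine synthetase consumes glutamate, and the proline pathway reduces it to a semialdehyde that closes into a ring. Cultured cancer cells often draw 2-oxoglutarate from glutamine.

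The libraries held 86300849 to 121238531 estimated reads. OGDHL checked the eGFP label against the other groups. It stood at 1.19 ± 0.0715 TPM (transcripts per 1000000 transcripts, with SD, n = 3) in eGFP, 218 ± 52.8 in FL and 125 ± 49.5 in dMTS. Its ranges overlapped between FL (165 to 270) and dMTS (76.1 to 175), so it does not check these labels against each other. The 37 mitochondrially encoded genes took 54.9% of TPM in dMTS replicate 2 and 62.1% to 66.0% in the other libraries, and the tested genes of that library lay 0.28 (median, log2) above their means over the 9 libraries. Each result is therefore given on the values as deposited and on values rescaled so that this median is 0 in each library. Rescaled, OGDHL was at 172 to 263 TPM in FL and at 82.7 to 144 in dMTS, without overlap (17.4% of all genes tested did not overlap). That difference did not pass (limma adjusted p 0.182), and its part in dMTS against FL was not tested. All 8 prostate luminal markers passed the filter, and their summed level was 2351 to 3008 TPM. Of 8 markers of stromal, endothelial and blood cells, 7 were in the table, none of them at 0 in every library, and 1, COL1A1, passed the filter; their summed level was 3.34 to 3.76 TPM in eGFP, 3.27 to 3.47 in FL and 2.66 to 3.01 in dMTS, and whether this difference has a part in any result was not tested.

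The deposited TPM divide reads by the whole gene, introns included, so levels of different genes were compared as estimated reads per 1000000 reads and per kilobase of annotated exon. On this scale GOT2, the mitochondrial aspartate aminotransferase, was highest, with a mean of 74.9 over the 9 libraries (range 70.5 to 79.8). PYCR1, which makes proline in the last step of its pathway, followed at 59.0 (53.7 to 61.4), and ALDH18A1, which begins that pathway, at 48.7 (45.9 to 52.7). GOT1, the cytosolic aspartate aminotransferase, at 35.6 (33.2 to 38.3) and GLUD1 at 35.0 (33.4 to 37.5) could not be ordered, since their ranges overlapped. Below them came GLUL at 24.8 (23.4 to 27.3) and GPT2, the mitochondrial alanine aminotransferase, at 13.3 (12.4 to 14.0). OAT, at 2.64 (2.36 to 3.23), and GPT, the cytosolic alanine aminotransferase, at 1.76 (1.07 to 2.15), were the lowest. GOT1 and GLUD1 were the single pair of neighbours in this order whose ranges overlapped. Annotated exon here counts each base that lies in an exon of any transcript of the gene. It covered 9032 of 14109 bases of GLUL and 2756 of 4202 bases of GPT, ratios of span to exon of 1.56 and 1.52. The ratio was 3.48 to 13.5 for the other 7 genes. How far the order depends on the exons counted was not tested. Estimated reads in a library ranged from 329 to 696 for GPT and from 707 to 1327 for OAT, and were 7240 or more for each of the other 7 genes, so GPT and OAT carry the most counting error.

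**Figure D1:**
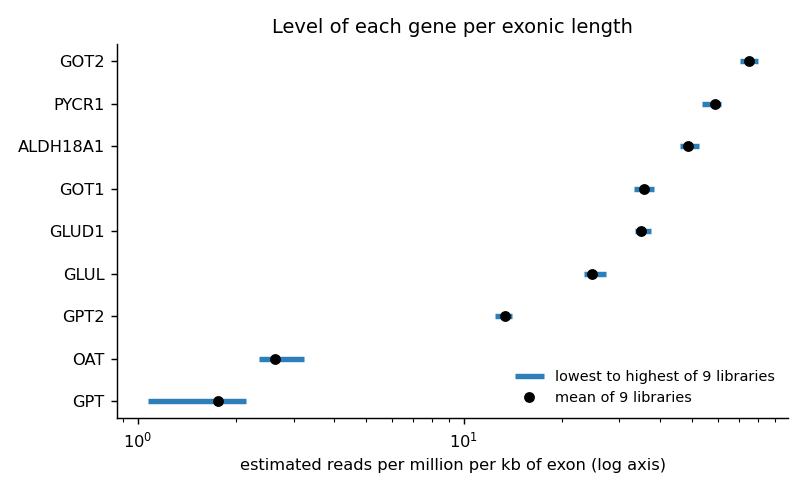
Level of each gene as estimated reads per 1000000 reads and per kilobase of annotated exon (horizontal, log axis); points are means of the 9 libraries and bars run from the lowest to the highest library. GOT2 sits highest at 74.9 and GPT lowest at 1.76, with the widest bar.

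GPT was the member that differed most between groups. It encodes the cytosolic enzyme that moves an amino group between alanine and 2-oxoglutarate, and it lies on the plus strand at chr8:144502973-144507174 (GRCh38, ENSG00000167701). As deposited, GPT was at 4.50, 4.55 and 4.19 TPM in eGFP replicates 1 to 3, at 4.38, 3.70 and 4.63 in FL and at 2.84, 2.85 and 2.29 in dMTS. All 3 dMTS libraries were below all 6 others, while FL overlapped eGFP. In estimated reads the dMTS libraries held 402, 383 and 329, against 629, 599 and 501 in eGFP and 552, 479 and 696 in FL.

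The mean GPT level in dMTS, 2.66 ± 0.322 TPM, fell by 39.8% from the mean of 4.42 ± 0.195 in eGFP (SD, n = 3). On the log2(TPM + 1) scale, which understates changes of low genes, GPT fell by 0.57 (SE 0.0988) in dMTS against eGFP, with a limma Benjamini-Hochberg adjusted p of 0.0443 over 13231 genes; 0.514% of those genes passed 0.05. After rescaling it fell by 0.62 (SE 0.0866, limma adjusted p 0.0112), where 9.39% of genes passed. Against FL the fall was 0.52 (limma adjusted p 0.330) and, rescaled, 0.56 (0.117), neither of which passed; tested among protein-coding genes alone, an alternative added after seeing the data, the comparison with FL passed (0.0303). FL against eGFP gave −0.05 as deposited and −0.06 rescaled, and neither passed. As deposited, the dMTS call rests on single libraries: it was lost on leaving out any eGFP library, FL replicate 1, FL replicate 3 or dMTS replicate 3, with limma adjusted p from 0.0507 to 0.247 in those 6 fits; rescaled, it was lost without eGFP replicate 2 (0.0626) or dMTS replicate 3 (0.0561). It was also missed as deposited in a fit of the 6 libraries compared (0.0504) and without a filter on low values (0.115). In bulk RNA, fewer cells with GPT RNA and less GPT RNA per cell cannot be told apart.

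GPT2 (ENSG00000166123, plus strand, chr16:46884362-46931289) did not follow. It stood at 6.19, 6.09 and 5.43 TPM in eGFP, 5.76, 5.58 and 5.67 in FL and 5.57, 7.19 and 5.71 in dMTS as deposited, with overlapping ranges between dMTS and eGFP. Its log2 fold change in dMTS against eGFP was 0.05 (SE 0.0994) as deposited and −0.01 (SE 0.0327) rescaled, and neither passed. A ratio of both genes within a library does not depend on scaling. The log2 ratio of GPT to GPT2 was −0.42 ± 0.0438 in eGFP, −0.43 ± 0.153 in FL and −1.21 ± 0.207 in dMTS. The 3 dMTS ratios, −0.97, −1.34 and −1.32, lay below every other library, 0.79 below the eGFP mean and 0.78 below the FL mean. These ratios are given as a description and were not tested.

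The GPT value cannot be assigned to GPT alone. A long noncoding RNA on the minus strand, ENSG00000255182 (chr8:144495458-144505444), overlaps 2472 of the 4202 bases of GPT and held a mean of 1491 estimated reads against 508 for GPT. The library kit keeps strand, but the sources used here do not say whether counting used it, so reads from GPT and from this antisense RNA cannot be told apart. The antisense RNA stood at 5.68, 5.72 and 5.68 TPM in eGFP, 4.87, 5.01 and 4.93 in FL and 3.96, 3.76 and 2.43 in dMTS. Its 3 groups did not overlap, in the order eGFP, FL, dMTS. Of all genes tested, 11.5% did not overlap in FL against eGFP, 11.8% in dMTS against eGFP and 8.92% in dMTS against FL. In dMTS against eGFP it fell by 0.63 on the log2 scale (SE 0.124, limma adjusted p 0.0523) as deposited, which did not pass, and by 0.69 (SE 0.135, adjusted p 0.0249) after rescaling, which did; the rescaled call was lost on leaving out any eGFP library or dMTS replicate 2 or 3, with adjusted p up to 0.0885. In FL against eGFP it gave −0.17 as deposited and did not pass.

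Of the protein-coding genes tested within 25000 bases of GPT, none passed in dMTS against eGFP on either scaling. RECQL4, a DNA helicase, gave −0.17 (limma adjusted p 0.557) as deposited and −0.23 (0.0603) rescaled, and LRRC14 gave −0.18 (0.501) and −0.25 (0.0680). PPP1R16A, MFSD3 and C8orf82 lay between −0.04 and 0.01 as deposited. Rescaled they gave −0.05, −0.11 and −0.06, so all 5 genes were lower on that scaling. Rescaled, every dMTS library was below every eGFP library for RECQL4 and LRRC14, where 32.4% of all genes tested did not overlap. The falls of GPT and of its antisense RNA were larger than any of these 5, a contrast that was not itself tested.

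**Figure D2:**
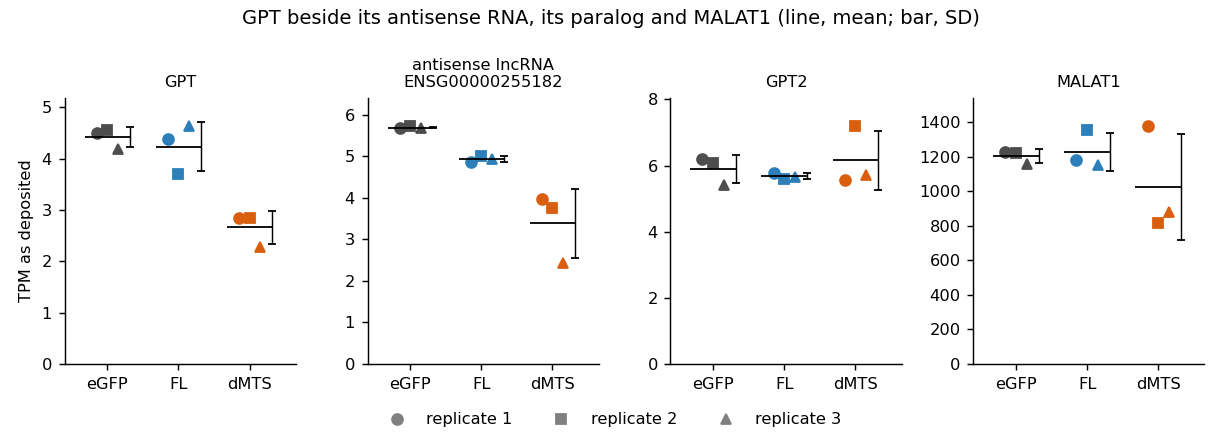
TPM as deposited (vertical) of GPT, its antisense RNA, GPT2 and the nuclear RNA MALAT1 in eGFP, FL and dMTS; each marker is a library, lines are group means and bars SD (n = 3). GPT is at 2.29 to 2.85 in dMTS and at 3.70 or more elsewhere, while GPT2 is at 5.43 to 7.19 with overlapping groups.

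MALAT1, an abundant nuclear RNA, also differed among the dMTS libraries: as deposited it was at 1374, 816 and 878 TPM in dMTS replicates 1 to 3 and at 1151 to 1352 in the other 6. After rescaling, GPT was at 3.09, 2.34 and 2.31 in the same 3 libraries and at 3.85 to 4.59 in the others. The pair of dMTS libraries with low MALAT1 as deposited is thus the pair with the lowest rescaled GPT. As deposited, GPT was at 2.84, 2.85 and 2.29 in dMTS replicates 1 to 3, so the match does not hold on that scaling. On both scalings dMTS replicate 1, with high MALAT1, had less GPT than all 6 libraries of the other groups. The part of the MALAT1 difference in the GPT result was not tested.

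By root mean square difference of centred log2(TPM + 1) over the 9 rescaled libraries, the genes nearest GPT among 9545 compared were MBD6 (0.0708), ERVK13-1 (0.0747) and TBC1D10C (0.0754), where the size of the GPT pattern itself was 0.296. MBD6 encodes a methyl-CpG-binding domain protein, ERVK13-1 is an RNA from an endogenous retrovirus locus and TBC1D10C a GTPase-activating protein. MBD6 went from 18.7 ± 0.179 TPM in eGFP through 17.0 ± 0.889 in FL to 12.6 ± 1.43 in dMTS. Between eGFP and dMTS, ERVK13-1 went from 5.55 ± 0.381 to 3.64 ± 0.679 and TBC1D10C from 3.66 ± 0.249 to 2.06 ± 0.427 TPM. The 3 genes were picked for this likeness over the same libraries, so their levels are a description and carry no test.

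GLUL, at chr1:182378098-182392206 on the minus strand (ENSG00000135821), encodes the enzyme that joins ammonia to glutamate. As deposited it was at 52.3, 48.4 and 46.3 TPM in eGFP, 49.1, 49.1 and 52.0 in FL and 50.1, 66.2 and 55.0 in dMTS, and the groups overlapped. The highest value came from dMTS replicate 2, the library that stood apart in scale. After rescaling, GLUL was at 49.9, 48.7 and 50.7 in eGFP, 50.2, 51.2 and 50.5 in FL and 54.4, 54.6 and 55.7 in dMTS. All 3 dMTS libraries were then above the other 6.

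The rescaled mean of GLUL in dMTS, 54.9 ± 0.714 TPM, was 10.3% above the 49.7 ± 1.02 of eGFP (SD, n = 3). GLUL rose by 0.14 on the log2 scale (SE 0.0261, limma adjusted p 0.0222) after rescaling, a scaling on which 9.39% of all genes passed. As deposited its fold change was 0.21 (SE 0.107), with an adjusted p of 0.528, and did not pass. Against FL it was 0.18 (adjusted p 0.964) as deposited and 0.11 (0.178) rescaled. The rescaled call held in 4 of 9 fits with 1 library left out and was lost, with adjusted p up to 0.0980, without any eGFP library, dMTS replicate 2 or dMTS replicate 3. The genes nearest the GLUL pattern, whose own size was 0.0632, were MORF4L2 (0.0145), RPL5 (0.0157) and RPN1 (0.0192), which encode a chromatin-complex subunit, a ribosomal protein and a subunit of the oligosaccharyltransferase.

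GLUD1, which interconverts glutamate and 2-oxoglutarate in mitochondria (ENSG00000148672, chr10:87050202-87094843, minus strand), was nearly flat. Rescaled, it stood at 9.07, 9.10 and 8.75 TPM in eGFP, 8.72, 8.95 and 9.25 in FL and 8.92, 9.23 and 9.01 in dMTS. Every pair of groups overlapped, and the rescaled log2 fold changes were 0.00, 0.01 and 0.01 for FL against eGFP, dMTS against eGFP and dMTS against FL. The log2 ratio of GLUL to GLUD1 was 2.47 ± 0.0586 in eGFP, 2.50 ± 0.0424 in FL and 2.60 ± 0.0329 in dMTS, with the dMTS libraries above the other 6. This ratio was not tested.

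Reads of GLUD1 are uncertain through its copies and through an overlapping gene. GLUD2, a copy of GLUD1 without introns on chromosome X, held estimated reads equal to 21.4% of those of GLUD1 and had a rescaled log2 fold change of 0.02 in dMTS against eGFP (limma adjusted p 0.902); how counting split reads between them is not given in the sources used here. SHLD2, on the opposite strand, overlaps GLUD1 by 683 bases and held 5474 estimated reads against 13037. GLUD1P3 and GLUD1P2, copies named as pseudogenes, held estimated reads equal to 1.36% and 0.144% of those of GLUD1. Pseudogenes of GLUL summed to 0.107% of GLUL reads and those of GOT2 to 1.09% of GOT2 reads.

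GOT1 and GOT2 move the amino group between aspartate and 2-oxoglutarate in the cytosol and in mitochondria, as a part of the shuttle that carries reducing equivalents between them. RefSeq start-site windows (250 bases before to 50 after, GRCh38.p14) were found for 6 of the 9 genes, in 7 windows. These were searched on both strands for 3 motifs. GPT, GPT2 and PYCR1 had no window, so they were not searched for any motif. TGATGNAA, the core bound by C/EBP-ATF factors, was in 1 of the 7 windows, that of GOT1, 198 bases before the start; 3.62% of 35116 windows hold it. The upstream 250 bases of GOT1 are shown because they hold this match, read on the minus strand of chr10:99430625-99430874 with the match, TTGCATCA, in capitals.
GOT1: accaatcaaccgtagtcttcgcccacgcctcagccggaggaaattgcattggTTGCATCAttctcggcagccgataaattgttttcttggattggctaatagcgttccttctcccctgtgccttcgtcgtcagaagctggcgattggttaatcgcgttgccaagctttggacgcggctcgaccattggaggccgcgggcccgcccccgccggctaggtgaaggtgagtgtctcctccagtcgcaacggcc
CACGTG, the E-box, was in 1 window too, that of ALDH18A1, 136 bases before the start (7.26% of all windows), and TGACGTCA, the cyclic AMP response element, in 0 of 7 (1.85% of all windows). A match describes letters in the window and is not a binding site. The upstream 250 bases of ALDH18A1, on the minus strand of chr10:95656712-95656961, carry the E-box in capitals.
ALDH18A1: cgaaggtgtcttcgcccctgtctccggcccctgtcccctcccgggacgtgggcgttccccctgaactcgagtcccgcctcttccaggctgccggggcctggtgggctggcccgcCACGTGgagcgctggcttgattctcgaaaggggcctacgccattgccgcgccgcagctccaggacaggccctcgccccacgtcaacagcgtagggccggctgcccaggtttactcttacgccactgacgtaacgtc

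GOT1 (ENSG00000120053, chr10:99396870-99430624, minus strand), the gene with the TGATGNAA match above, changed little. It was at 11.8, 11.3 and 10.7 TPM in eGFP, 11.0, 11.4 and 11.2 in FL and 11.8, 14.1 and 11.7 in dMTS as deposited. As deposited the dMTS libraries were all above FL and overlapped eGFP; rescaled, at 12.8, 11.6 and 11.8, they overlapped both. Its log2 fold change in dMTS against eGFP was 0.13 (SE 0.0912) as deposited and 0.07 (SE 0.0444) rescaled, and neither passed.

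GOT2 (ENSG00000125166, chr16:58707131-58734342, minus strand) was, rescaled, at 33.3, 33.8 and 34.3 TPM in eGFP, 32.9, 33.2 and 31.9 in FL and 35.5, 34.5 and 35.2 in dMTS. The 3 groups did not overlap, FL lowest and dMTS highest, although the means differed little: 33.8 ± 0.498, 32.7 ± 0.672 and 35.0 ± 0.515. As deposited the groups overlapped. The rescaled log2 fold change was 0.05 (SE 0.0271, limma adjusted p 0.259) in dMTS against eGFP and 0.10 (0.193) in dMTS against FL, and neither passed. The log2 ratio of GOT1 to GOT2 was −1.56 ± 0.00897 in eGFP, −1.53 ± 0.0403 in FL and −1.54 ± 0.0577 in dMTS, with overlapping ranges.

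OAT (ENSG00000065154, chr10:124397303-124418976, minus strand) turns ornithine and 2-oxoglutarate into glutamate and the semialdehyde shared with proline synthesis. Rescaled, it was at 1.31, 1.23 and 1.26 TPM in eGFP, 1.28, 1.21 and 1.42 in FL and 1.33, 1.58 and 1.49 in dMTS. The dMTS libraries were above all eGFP libraries, the lowest by a narrow margin, and overlapped FL. Its log2 fold change in dMTS against eGFP was 0.12 (SE 0.0505, limma adjusted p 0.165) rescaled and 0.17 (SE 0.107, adjusted p 0.626) as deposited, and neither passed.

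ALDH18A1 (ENSG00000059573, chr10:95605941-95656711, minus strand), which reduces glutamate to the semialdehyde and carries the E-box shown above, stood rescaled at 11.8, 11.9 and 11.5 TPM in eGFP, 11.8, 11.4 and 12.0 in FL and 11.4, 12.2 and 12.0 in dMTS. PYCR1 (ENSG00000183010, chr17:81932384-81942412, minus strand), which makes proline from the closed ring, stood at 53.3, 56.0 and 58.7, at 56.0, 55.5 and 50.5, and at 56.4, 55.1 and 57.0. Both genes overlapped between every pair of groups. In dMTS against eGFP, ALDH18A1 gave 0.08 as deposited and 0.01 rescaled, and PYCR1 gave 0.08 and 0.01. The log2 ratio of ALDH18A1 to PYCR1 was −2.25 ± 0.0911 in eGFP, −2.20 ± 0.109 in FL and −2.24 ± 0.0658 in dMTS, again with overlap. MYADML2, which overlaps PYCR1 by 2768 bases on the same strand, held 95.2 estimated reads against 17926.

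**Figure D3:**
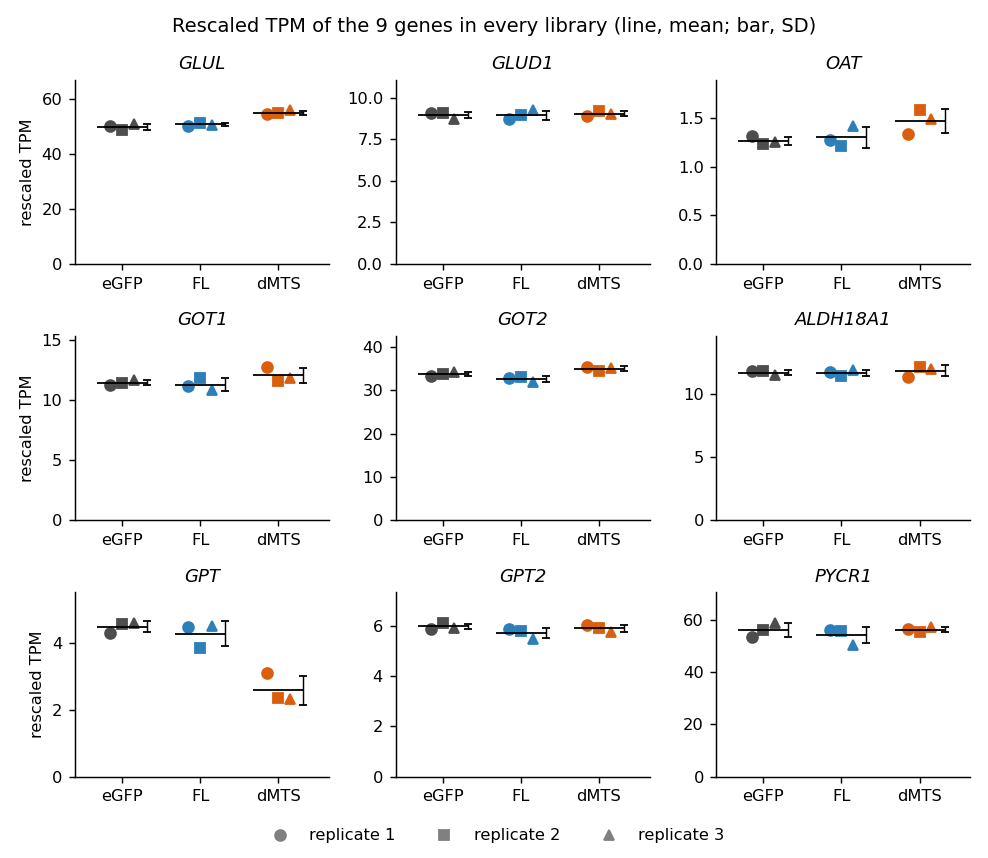
Rescaled TPM (vertical) of the 9 genes in eGFP, FL and dMTS; each marker is a library, lines are group means and bars SD (n = 3). GPT sits at 2.31 to 3.09 in dMTS against 3.85 or more in the other groups and GLUL at 54.4 to 55.7 against 51.2 or less, while GLUD1, ALDH18A1 and PYCR1 overlap in all groups.

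In FL against eGFP, limma called 0 of 9 genes on either scaling, where 0.00756% of all genes passed as deposited and 0.0302% rescaled; 0 of 9 had an unadjusted p under 0.05 (1.97% and 9.18% of all genes), and limma-voom on estimated reads also called 0. The median log2 fold change of the 9 was −0.01 as deposited and −0.02 rescaled, against 0.00 and 0.00 for all genes tested. As deposited all 9 genes overlapped between both groups (11.5% of all genes did not). After rescaling GOT2 and GPT2 lay below eGFP in all FL libraries, where 17.8% of all genes did not overlap.

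In dMTS against eGFP, 1 of 9 genes was called as deposited (GPT, lower) and 2 of 9 rescaled (GPT lower, GLUL higher). Of all genes, 0.461% were called lower and 0.0529% higher as deposited, and 6.06% lower and 3.33% higher rescaled. An unadjusted p under 0.05 was found for 1 gene as deposited (10.9% of all genes) and for 3 rescaled, GPT, GLUL and OAT (28.3%). The medians of the 9 were 0.08 and 0.01, against 0.06 and 0.01 for all genes. Groups did not overlap for 1 gene as deposited, GPT, and for 4 rescaled, GPT below and GLUL, GOT2 and OAT above; the shares over all genes were 11.8% and 32.4%.

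In dMTS against FL, limma called 0 of 9 on either scaling, with 0% and 0.00756% of all genes called; 1 of 9 as deposited (GPT) and 3 of 9 rescaled (GPT, GLUL and GOT2) had an unadjusted p under 0.05 (5.42% and 15% of all genes), and limma-voom called 0. Medians were 0.12 and 0.06, against 0.05 and 0.00. As deposited 2 genes did not overlap, GPT below and GOT1 above (8.92% of all genes), and rescaled 3 genes did not, GPT below and GLUL and GOT2 above (17.4%). Both dMTS comparisons use the same dMTS libraries, and both eGFP comparisons the same eGFP libraries. GPT and GLUL were each past the threshold in dMTS against eGFP and not in FL against eGFP; the test of that difference is dMTS against FL, which neither passed.

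**Figure D4:**
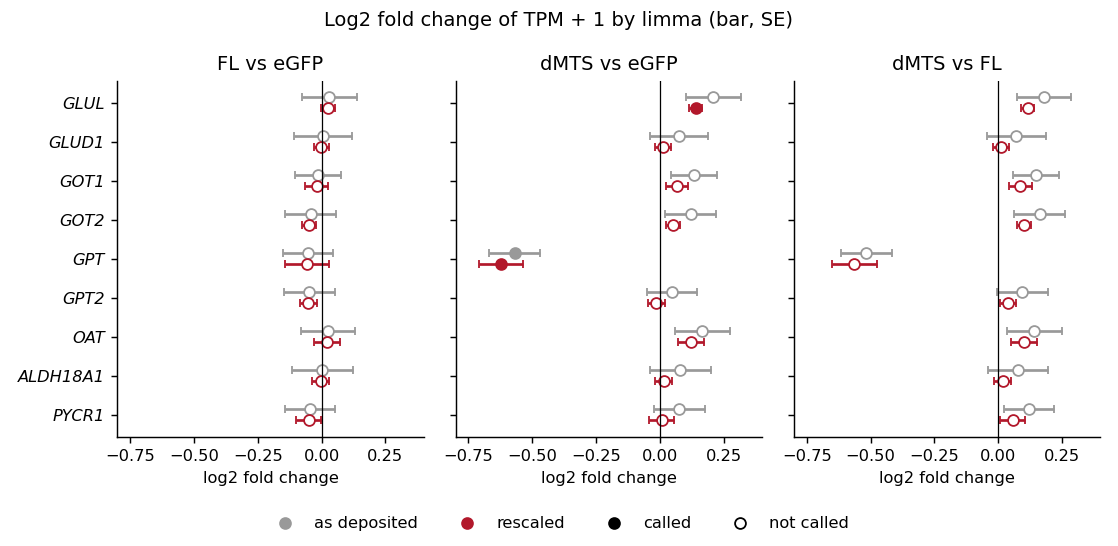
Log2 fold change of TPM + 1 by limma (horizontal) with SE bars for the 9 genes in FL against eGFP, dMTS against eGFP and dMTS against FL, as deposited (grey) and rescaled (red); filled points passed an adjusted p of 0.05. GPT is filled on both scalings and GLUL after rescaling, both in dMTS against eGFP.

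Other genes of the pathway were taken from 5 lists. As deposited none of their tested genes passed in any comparison, and after rescaling none passed in FL against eGFP or dMTS against FL; the 6 calls all came from rescaled dMTS against eGFP, and all 6 were higher, the direction in which 3.33% of all genes were called. Of 10 other transaminases 4 were tested and 1 rose: PSAT1, the serine-pathway enzyme that takes its amino group from glutamate, was at 15.8 ± 0.267 TPM in eGFP, 17.7 ± 0.378 in FL and 20.2 ± 0.491 in dMTS. It rose by 0.34 (SE 0.0295, limma adjusted p 0.0029) and stayed called in 9 of 9 fits with 1 library left out. As deposited it gave 0.41 with an adjusted p of 0.170. The list's median was −0.07 against 0.01 for all genes, and none of its other 3 tested members passed.

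Of 10 glutamine amidotransferases, which use glutamine as a nitrogen donor and release glutamate, 9 were tested and 1 rose. ASNS, asparagine synthetase, was at 22.9 ± 0.176, 24.1 ± 0.767 and 27.1 ± 0.253 rescaled TPM in eGFP, FL and dMTS and rose by 0.23 (SE 0.0288, limma adjusted p 0.0083), a call lost without eGFP replicate 2 (0.0592). The list's median was 0.06. Of 14 carriers 8 were tested and 2 rose, with a list median of 0.15. SLC1A5, a glutamine and neutral amino acid transporter, rose by 0.20 (limma adjusted p 0.0212), from 26.3 ± 0.991 TPM in eGFP to 30.4 ± 0.351 in dMTS. FL was at 26.9 ± 0.943. SLC7A11, the cystine and glutamate exchanger, rose by 0.44 (limma adjusted p 0.0489), from 2.67 ± 0.208 in eGFP to 4.01 ± 0.723 in dMTS. FL stood between them at 3.35 ± 0.450. The SLC7A11 call held in 1 of 9 fits with a library left out.

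Of 13 other enzymes of proline, ornithine and arginine, 9 were tested and 1 rose, ARG2, a mitochondrial arginase, by 0.14 (limma adjusted p 0.0472); the list's median was −0.09. The last list, of 9 genes, joined other enzymes of glutamate use with the malate enzymes MDH1, MDH2, ME1 and ME2. Of these 9 genes, 7 were tested and 1 rose, ME1, the cytosolic malic enzyme, by 0.17 (limma adjusted p 0.0271). The list's median was 0.05. With 1 library left out, the SLC1A5 call was lost without eGFP replicate 2 or 3 or dMTS replicate 2 or 3 (adjusted p up to 0.0863), and that of ME1 without any eGFP library, FL replicate 1 or dMTS replicate 2 or 3 (up to 0.103). Those of ARG2 and SLC7A11 held in a single fit, the one without dMTS replicate 1, with adjusted p up to 0.165 and 0.151 in the others. With limma-voom on rescaled estimated reads all 6 genes passed, and without rescaling ARG2 did not (adjusted p 0.0766). Rescaled, every FL library was also above every eGFP library for PSAT1, ASNS, SLC7A11 and ME1, while SLC1A5 and ARG2 overlapped. In that comparison 17.8% of all genes tested did not overlap. The 6 genes were picked by their calls in dMTS against eGFP, which uses the same eGFP libraries.

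**Figure D5:**
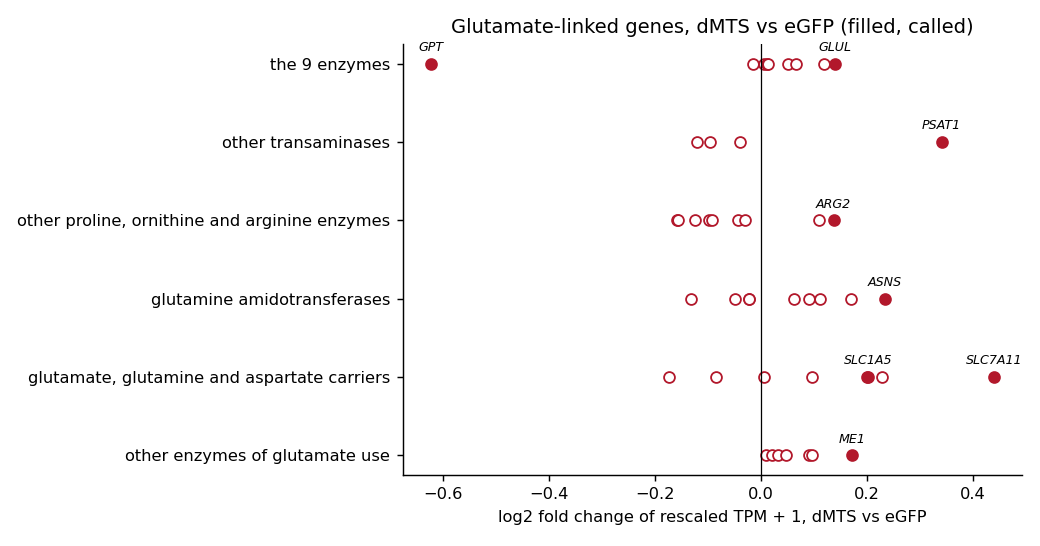
Log2 fold change of rescaled TPM + 1 in dMTS against eGFP (horizontal) for the tested genes of the 9 enzymes and of 5 lists of related genes (rows); filled and named points passed an adjusted p of 0.05. GPT, at −0.62, is the single filled point on the lower side.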

How the data were processed

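Polyadenylated RNA of 9 libraries was read in pairs on a strand-keeping kit, per the labels' protocols, and aligned to GRCh38 with STAR, per the submitters' processing notes; the quantifier, and any use of strand in counting, are not given here. The deposited table holds TPM per gene, and in 100.0% of its rows the deposited length is the genomic span. Most low TPM values in a library were whole multiples of a fixed step, taken as 1 read. Of values under 20 reads, 71.8% to 74.4% came within 0.01 of a whole number, and the rest were fractional. Reads were estimated from these steps and are not all whole counts. Genes with TPM of at least 1 in at least 3 libraries (13231, or 36.1%) were tested as log2(TPM + 1) with limma 3.58.1 in R 4.3.3, trended eBayes over all 9 libraries (6 residual degrees of freedom), two-sided, Benjamini-Hochberg adjusted over all genes tested, with a call at 0.05; no count model was the main test because the values are TPM. "Rescaled" divides each library so that the median log2 ratio of tested genes to their geometric means is 0. The limma fit was tried on simulated counts that differed in depth but held no shift in scale like that of dMTS replicate 2. The trial therefore does not check calls under such a shift. The members, gene lists and motifs were chosen with earlier results of these data known. Text names all members, OGDHL, the copies of GLUD1 and list genes called in any comparison (at most 4 a list). It also names the 3 genes nearest in pattern to each called member. Copies of GLUL and GOT2 are given as sums. Neighbours and overlapping genes of members were chosen after values were seen. Other scalings, filters, pseudocounts, weights, limma-voom, a replicate block and leaving out each library were tried. Rescaled limma-voom, protein-coding genes alone and rescaling without OGDHL were added after seeing the data. Exon lengths came from GENCODE and promoter windows from RefSeq.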

Additional observations from a re-analysis of the deposited data

How the results depend on the processing

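GPT was lower in dMTS than in eGFP under all 33 settings that tested it and passed in 22, from −0.81 to −0.30 on the log2 scale; GLUL was higher under all 34 and passed in 10, from 0.10 to 0.30. No log2 fold change of the 9 genes that passed the threshold had the opposite sign to its value as deposited. The number of the 9 genes called in dMTS against eGFP was 1 as deposited, 2 rescaled, 2 on TPM recomputed without OGDHL and mitochondrially encoded genes, 0 without a filter, 0 at a mean TPM of at least 5 (where GPT was not tested), 0 with only the 6 libraries compared, 3 with array weights, 2 with limma-voom, 2 with rescaled limma-voom, 2 rescaled without OGDHL, and 0 to 2 on leaving out 1 library. In dMTS against FL it was 0 as deposited, 4 with array weights, 1 (GPT) among protein-coding genes alone and 0 to 1 on leaving out 1 library. All genes called in FL against eGFP numbered 1 as deposited, 4 rescaled, 0 on recomputed TPM, 7 without a filter, 2 at a mean of 5, 3609 with array weights, 6 with limma-voom, 5 with rescaled limma-voom, 4 among protein-coding genes, 0 rescaled without OGDHL, and 1 to 13 on leaving out 1 library. For dMTS against eGFP the same settings gave 68, 1242, 1279, 13, 39, 6106, 1788, 2196, 168, 1240 and 3 (without eGFP replicate 2) to 2359 (rescaled without dMTS replicate 1). For dMTS against FL they gave 0, 1, 1, 7, 1, 4125, 9, 14, 11, 1 and 0 to 912 (rescaled without dMTS replicate 1). The cause of these shifts was not tested. The labels do not say whether same-numbered libraries were handled together. Deviations of same-numbered libraries from their group means correlated between −0.444 and 0.105 as deposited and between −0.462 and 0.090 rescaled. As deposited, no FL library correlated best with the eGFP library of its number, and no dMTS library with that of eGFP or FL. Read from the other side, eGFP replicate 2 matched dMTS replicate 2 (0.08) and FL replicate 1 matched dMTS replicate 1 (0.105). Deviations in a group sum to 0, which forces some negative correlations, so these values cannot decide whether the numbers pair the samples. With the replicate block, dMTS against eGFP had 13 genes and 0 of the 9 called (GPT adjusted p 0.121), and with the block and rescaling 99 genes and 1 (GPT, 0.0472). Depth limits GPT and OAT most.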
